A study of Mus musculus with 7 samples.

Results

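The 10 glutathione S-transferase (GST) genes Gsta1, Gsta2, Gsta3, Gsta4, Gstm1, Gstm2, Gstm3, Gstp1, Gstt1 and Gstt2 were read in the livers of fasted mice. They were found as the non-control probes that carry one of these names, which gave 16 of 55681 probes and 10 of 36492 gene names. Livers came from 3 WT C57BL/6 mice and from 4 SHIVA mice, 1 array per mouse. SHIVA is a line on the C57BL/6 background that arose by N-ethyl-N-nitrosourea mutagenesis and carries a point mutation in the DNA-binding HMG domain of the transcription factor Sox17. Per the study's methods all viable mutants are heterozygous and the line was kept by repeated crossing to C57BL/6, so the mutation lies in every cell of the animal and the group stands for 1 mutant line. All 7 mice were female, 8 to 12 weeks old, and had been fasted for 24 h, so no fed liver enters the comparison, which asks how the Sox17 mutation alters the transcripts of a fasted liver.

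GSTs join the tripeptide glutathione to electrophilic compounds, among them drugs, carcinogens and the reactive aldehydes left by lipid peroxidation, so that these can be exported from the cell. The soluble enzymes work as pairs of subunits and fall into classes by sequence, of which alpha, mu, pi and theta are covered here. Liver is rich in them. In mice the alpha genes Gsta1 and Gsta2 are known as inducible genes that answer to oxidants and foreign compounds through the factor NRF2. Gsta3, Gstm1 and Gstp1 are known as constitutive liver enzymes, which does not mean that they cannot be induced.

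In the positions of mm9 carried by the files, the probes of the Gsta1 and Gsta2 genes both lay on chromosome 9, at 78090411 to 78090470 on the plus strand for Gsta1 and at 78178856 to 78178915 on the minus strand for Gsta2. Gm10639, another alpha-like gene, has its brighter probe between them, at 78153243 to 78153302 on the plus strand. Because all alpha results turn on these 60-base probes, 30 aligned bases of each (bases 13 to 42 of the Gsta1 probe) are shown 5′ to 3′, with the 3 bases at which they differ in capitals.
Gsta1: GgtttgcaattataaaaAGcaattgttgat
Gsta2: TgtttgcaattataaaaTAcaattgttgat
Gm10639: GgtttgcaattataaaaTAcaattgttgat
The Gsta1 and Gsta2 probes overlapped over 50 bases, of which 46 matched, and the Gsta2 and Gm10639 probes over 60 bases, of which 53 matched. The Gsta1 and Gm10639 probes overlapped over 50 bases, of which 41 matched, so they are less alike than the bases shown. A further probe, placed at 78116894 to 78116953 in an interval that the files list as a noncoding transcript and give no gene name, matched the Gsta1 probe at 60 of 60 bases. The signal of the Gsta1 probe can therefore come from either place, and here "Gsta1" means what this probe read. No annotation of mm9 was used here, so exon and untranslated region are not stated.

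The start regions of these genes are also alike. The 250 bases before the annotated start of Gsta1 (RefSeq, GRCm38.p6, chr9:78230419-78230668, plus strand) and of Gsta2 (chr9:78347146-78347395, minus strand) are shown 5′ to 3′ because both genes read higher in SHIVA livers. The capitals mark their longest shared run, of 29 bases.
Gsta1: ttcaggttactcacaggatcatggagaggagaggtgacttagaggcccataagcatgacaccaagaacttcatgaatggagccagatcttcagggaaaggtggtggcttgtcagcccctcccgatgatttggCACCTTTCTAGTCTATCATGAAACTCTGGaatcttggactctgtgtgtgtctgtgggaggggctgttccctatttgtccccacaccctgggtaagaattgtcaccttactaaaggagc
Gsta2: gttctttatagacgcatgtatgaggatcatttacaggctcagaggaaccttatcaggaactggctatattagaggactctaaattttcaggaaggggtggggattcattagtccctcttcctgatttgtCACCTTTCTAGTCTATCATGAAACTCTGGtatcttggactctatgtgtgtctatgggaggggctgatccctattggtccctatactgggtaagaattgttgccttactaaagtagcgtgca
Over 252 aligned positions 188 bases (74.6%) were identical between Gsta1 and Gsta2. The same window of Gm10639 matched that of Gsta1 at 233 of 237 aligned positions (98.3%). The core TGACNNNGC of the element bound by NRF2, searched on both strands, was in none of these 3 windows and stood once before Gsta3, beginning 121 bases upstream of the start, against 10.2% of all 32851 RefSeq promoter windows of that length. The SOX core AACAAT, also searched on both strands, stood once before Gsta2, 27 bases upstream of the start, and in 9.4% of all windows. Of the 10 genes, 8 had a promoter entry. Bases further upstream than these 250 were not searched, so the search does not say whether a gene has either element elsewhere.

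Whole-array values bear on all of the results in the same way. Each array detected between 44.5% and 48.7% of its probes above background, no spot was saturated, and the number of arrays limits the precision. All 7 arrays shared 1 slide, with WT in row 1 and SHIVA in row 2, so slide position and genotype cannot be told apart. Sox17 itself averaged a log2 signal of 3.95 in the 3 WT livers (SD 0.56) and 4.64 in the 4 SHIVA livers (SD 0.13; limma, adjusted p = 0.279), and a probe for its mRNA level does not read a point mutation. The 6 hepatocyte markers on the arrays, among them Alb and Ttr, were above background throughout, and their summed log2 signal was 19.13 to 19.23 in WT and 19.06 to 19.2 in SHIVA livers. Of 10 small intestine markers 9, Vil1 and Cdx2 included, were above background on no array.

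Gsta1, which encodes an alpha class subunit, had the largest change of the 10 genes, except on normexp values, where Gsta2 was level with it. Its log2 signals were 6.17, 4.88 and 4.84 in the 3 WT livers and 7.49, 7.43, 7.98 and 7.98 in the 4 SHIVA livers. All SHIVA livers lay above all WT livers, with WT replicate 1 nearest to them. On the linear scale this was 5.37-fold more signal (95% interval 3.16 to 9.11), a log2 fold change of 2.42 ± 0.33 (SE), and limma with adjustment over 20002 genes gave an adjusted p of 0.0299. In this comparison 0.375% of all genes were called at an adjusted p under 0.05, 0.185% in the higher direction. Without 1 of WT replicate 2 or SHIVA replicates 1, 3 or 4 the adjusted p of Gsta1 rose to between 0.0666 and 0.151, with log2 fold changes of 2.22 to 2.5. In a whole liver, more cells that make a transcript and more transcript per cell cannot be told apart.

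**Figure D1:**
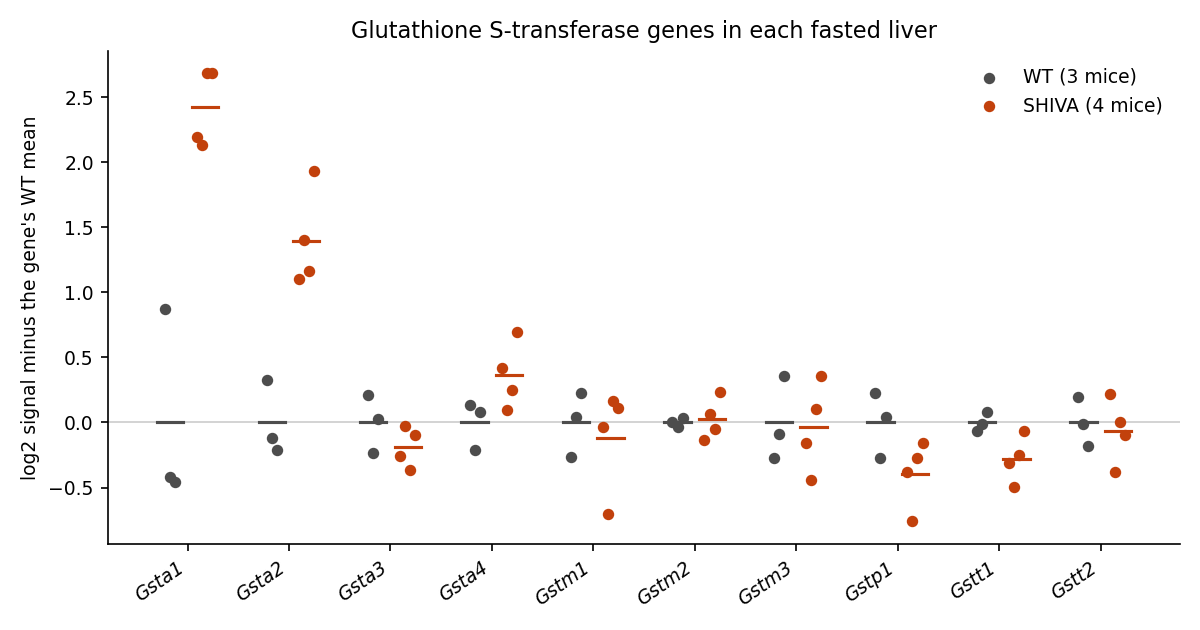
Log2 signal of each of the 10 GST genes in each liver, less the mean of the 3 WT livers for that gene (grey, WT; orange, SHIVA; bars, group means). The SHIVA livers stand above all WT livers for Gsta1 (mean difference 2.42) and Gsta2 (1.39), while the points of the genotypes mix for most of the others.

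Gsta2, which encodes a close relative of the Gsta1 subunit, was also higher in every SHIVA liver but missed the threshold. Its log2 signals were 10.21, 9.76 and 9.67 in WT and 10.98, 11.28, 11.04 and 11.81 in SHIVA livers. The groups did not overlap, and SHIVA replicate 4 was the highest. The log2 fold change was 1.39 ± 0.24 (SE), or 2.63-fold, with an adjusted p of 0.0593 by limma. It fell to 0.0127 in the authors' own table and to 0.0136 on the mean spot signal, where Gsta2 was called. The authors' table orders the spots of each array as the mean spot signal does (lowest rank correlation 1). Here and below, these settings therefore stand for the same processing and are not separate results.

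Gsta4 and Gsta3 complete the alpha class. Gsta4, which clears 4-hydroxynonenal, an aldehyde from oxidized lipids, gave 9.18, 8.83 and 9.12 in WT and 9.46, 9.14, 9.29 and 9.74 in SHIVA livers from a probe spotted 10 times per array. The groups overlapped, and the log2 fold change was 0.36 ± 0.18 (SE; adjusted p = 0.448, limma). Gsta3, known for detoxifying the epoxide of aflatoxin, lies away from the others on chromosome 1, the chromosome of Sox17. Its brighter probe (21255189 to 21255248) gave 16.62, 16.17 and 16.43 in WT and 16.15, 16.38, 16.04 and 16.31 in SHIVA livers. These groups overlapped as well, and the log2 fold changes of its 2 probes were -0.19 and -0.22 (adjusted p = 0.7 and 0.636 over all probes, limma).

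The change of Gsta1 was then set against that of each of the other 9 genes within the same liver. The difference in log2 fold change was lowest against Gsta2, at 1.03, and highest against Gstp1, at 2.81. In all 9 comparisons the per-mouse differences of the genotypes did not overlap, and the two-sided exact permutation test over the 35 splits of the mice gave 0.0286, the smallest p it can give. All 9 use the same Gsta1 values, so they are not independent results. Beside Gsta2, the relatives changed only by -0.39 to 0.36, so those comparisons mostly repeat the change of Gsta1 itself. For 8 of the 9 the exact p was the same under each other way of making the log2 values, with differences of 1.05 to 2.85. The excess over Gsta2 changed with the way the values were made. It was 1.09 when arrays were scaled to the 75th percentile (exact p = 0.0286), 0.3 on the mean spot signal without background correction (exact p = 0.257), 0.3 in the authors' table (exact p = 0.286) and -0.04 after normexp background correction (exact p = 0.886).
The log2 fold change of Gsta1 moved from 2.42 to 1.74, 1.74 and 1.37 under the last 3 of these, while that of Gsta2 stayed between 1.34 and 1.44 under all of them. Gsta1 remained higher in SHIVA throughout, but by how much, and whether by more than Gsta2, depends on how background is treated. The normexp values carry an added offset of 50. The mean spot signal keeps its background, and so does the authors' table, which orders the spots in the same way. Such values shrink the fold change of a dim probe more than that of a bright one. In WT livers the mean log2 signal was 5.29 for Gsta1 and 9.88 for Gsta2. These settings therefore cannot decide whether Gsta1 rose by more than Gsta2.

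**Figure D2:**
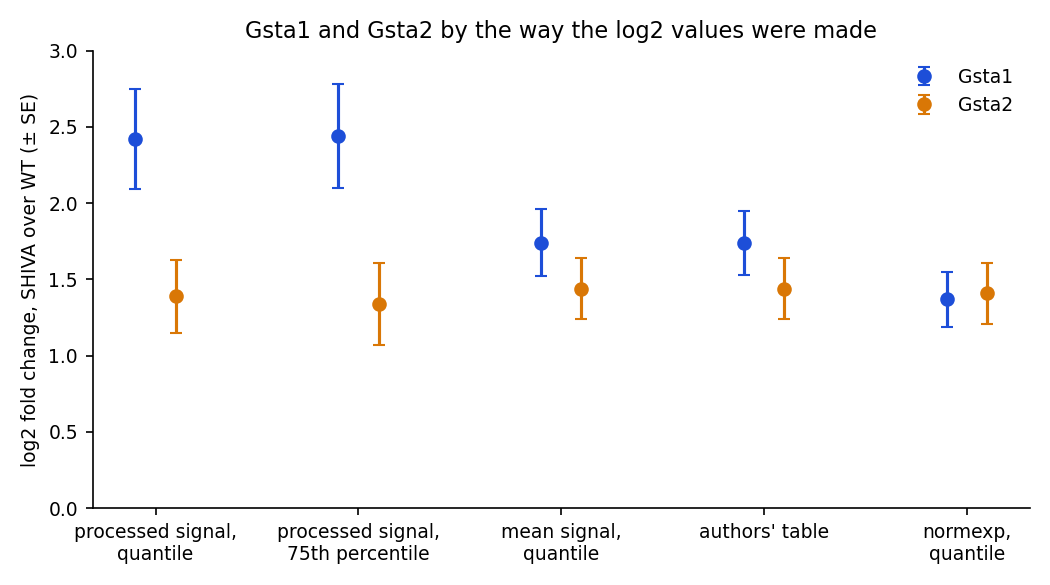
Log2 fold change (SHIVA over WT, ± SE) of Gsta1 (blue) and Gsta2 (orange) under 5 ways of making the log2 values, from the processed signal to the authors' table and normexp. Gsta1 runs from 2.44 down to 1.37 and Gsta2 stays between 1.34 and 1.44, so that the gap closes on the right.

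The alpha genes on chromosome 9 form a cluster from Gsta4 to Gsta2, in which 21 probes lay and 11 were bright enough to test. Of these 11, 7 were higher in SHIVA livers without overlap, against 5.84% of all 26258 probes tested, and 0 were lower without overlap. These probes are not independent, since several share sequence as shown above. Gsta1 was the single probe of the cluster called in a fit over all probes (adjusted p = 0.035, limma), a fit that called 0.232% of probes, 0.107% in the higher direction.
Both probes of Gm10639 were among the 7. The brighter gave 9.09, 8.46 and 8.26 in WT and 9.91, 10.08, 10.21 and 10.69 in SHIVA livers. The groups did not overlap. Its log2 fold change was 1.62 ± 0.25 (SE; adjusted p = 0.0455 over all genes, limma), and the dimmer probe had 1.27. The call was lost on normexp values (adjusted p = 0.0544), on 75th percentile scaling (adjusted p = 0.0536) and in each fit that left out 1 liver except the one without WT replicate 3 (adjusted p of the others 0.0666 to 0.2).
Between the Gsta1 and Gm10639 probes the files list 2 overlapping unnamed intervals on the plus strand, read by 3 probes bright enough to test, and all 3 were higher without overlap. The probe identical to that of Gsta1 gave 6.47, 4.39 and 5.1 in WT and 7.43, 7.34, 7.99 and 7.99 in SHIVA livers, close to the Gsta1 values mouse by mouse. Its log2 fold change was 2.37, but unlike the Gsta1 probe it missed the threshold (adjusted p = 0.0873 over all probes, limma). Its neighbour, at 78116834 to 78116893, gave 7.55, 5.91 and 6.2 in WT and 8.69, 8.46, 9.3 and 9.2 in SHIVA livers. Its log2 fold change was 2.36 (adjusted p = 0.0561 over all genes, limma), and it shared 47 of 54 overlapping bases with a Gm10639 probe. Both belong to the same listed interval. The last of the 3, at 78116774 to 78116833, is the probe of the other interval and gave 11.25, 10.68 and 10.92 in WT and 11.62, 11.77, 11.9 and 12.39 in SHIVA livers. Its log2 fold change was 0.97 (adjusted p = 0.143 over all probes, limma). The minus-strand probes there were dim, and the 2 that could be tested overlapped between genotypes.

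**Figure D3:**
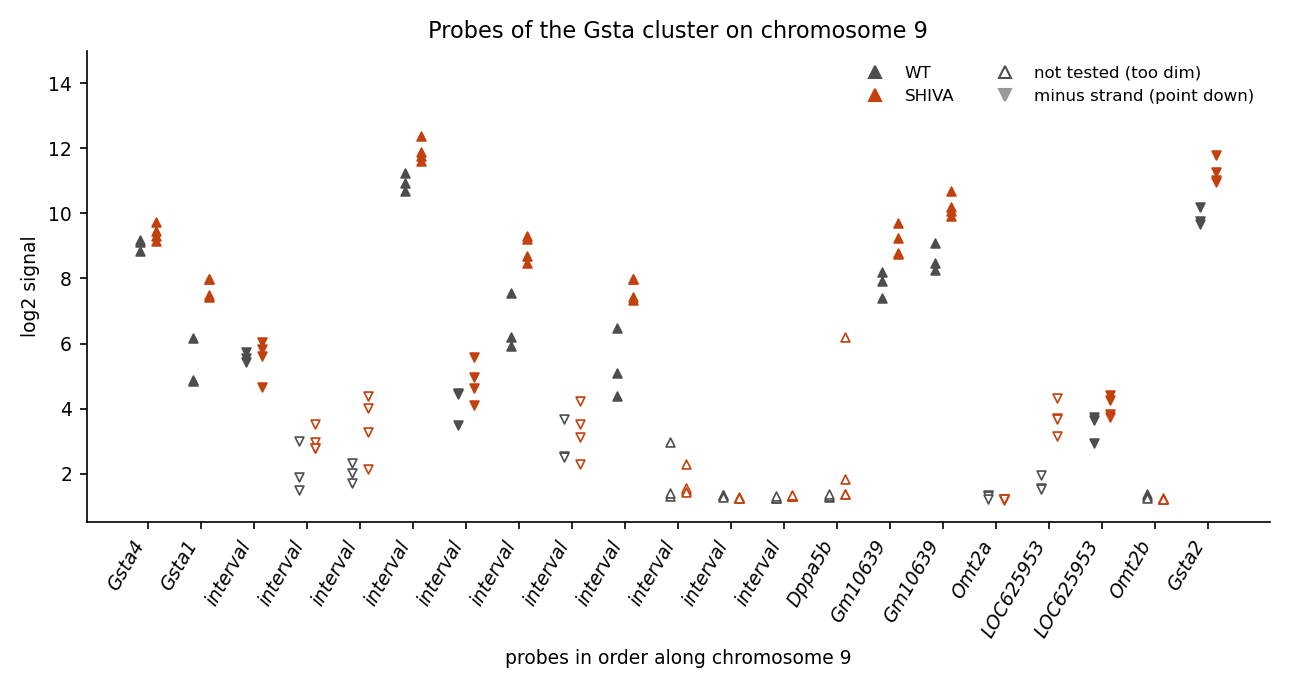
Log2 signal in each liver for the 21 probes of the alpha cluster, in their order along chromosome 9 from Gsta4 to Gsta2 (grey, WT; orange, SHIVA; triangles pointing down, minus strand; open, too dim to test; "interval", any unnamed interval). Heights may be compared within a probe and not between probes. The filled plus-strand probes from Gsta1 to Gm10639 and the Gsta2 probe show the genotypes apart, and the probes of Omt2a, Omt2b and Dppa5b were too dim to test.

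The mu class, which is coded in a cluster on chromosome 3 and acts on epoxides and quinones, held no called gene. Gstm1 gave 14.37, 14.68 and 14.86 in WT and 14.6, 13.93, 14.8 and 14.75 in SHIVA livers, where SHIVA replicate 2 was the lowest of all 7. Gstm2 varied least of these 3, from 12.25 to 12.32 in WT and from 12.15 to 12.52 in SHIVA livers. Gstm3 ran from 12.95 to 13.58 in WT and from 12.78 to 13.58 in SHIVA livers.
Their log2 fold changes were -0.12, 0.03 and -0.03, and the 95% intervals of all 3 lay between -0.66 and 0.5. The dimmer Gstm3 probe went another way than the brighter one. It gave 9, 7.77 and 9.24 in WT and 9.29, 9.52, 9.55 and 10.3 in SHIVA livers, with no overlap and a log2 fold change of 0.99 ± 0.38 (SE; adjusted p = 0.315 over all probes, limma), which was 0.54 without WT replicate 2. This probe shared 25 of 27 overlapping bases with the second Gstm1 probe, and the files place that second probe on chromosome 5 (117082490 to 117082549), away from the cluster. The signals of these 2 probes are therefore uncertain in their source.

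Gstp1, the pi class enzyme on chromosome 19, gave 13.5, 13 and 13.31 in WT and 12.89, 12.51, 13 and 13.11 in SHIVA livers. The groups overlapped. The log2 fold change was -0.39 ± 0.19 (SE; adjusted p = 0.442, limma), with -0.38 from its second probe. The first of these probes shared 30 of 35 overlapping bases with a probe of Gstp2, the neighbouring pi gene, whose log2 fold change was -0.4 (adjusted p = 0.377 over all probes, limma). The brightest Gstp2 probe gave -0.21 (adjusted p = 0.636 over all genes, limma).
Gstt1 and Gstt2 both lie on chromosome 10 and encode theta enzymes, known for small halogenated compounds. Gstt1 gave 14.23, 14.28 and 14.37 in WT and 13.98, 13.8, 14.04 and 14.23 in SHIVA livers. The highest SHIVA value lay just under the lowest WT value, equal to 2 decimals, and the log2 fold change was -0.28 ± 0.15 (SE; adjusted p = 0.463, limma). Gstt2 ran from 11.76 to 12.14 in WT and from 11.56 to 12.16 in SHIVA livers, and its log2 fold change was -0.06.

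All 10 genes were well above background on all 7 arrays, so none was lost to the filter on dim probes. In the limma fit over all genes 1 of the 10 was called, higher, and 0 were called lower, against 0.185% and 0.19% of all genes. Of the 10, 2 had an unadjusted p under 0.05, against 13.3% of all genes. Without overlap between genotypes 2 were higher and 1 lower, against 6.14% and 6.02% of all genes. The median log2 fold change of the 10 was -0.05, and that of all 20002 genes was -0.01. Beside Gsta1 and Gsta2, the log2 fold changes of the other 8 genes lay between -0.39 and 0.36.
Deviations of single livers from their group mean were also compared between Gsta1 and each other gene over the 7 livers. The correlation ran from -0.09 with Gstm3 to 0.71 with Gstp1 and was 0.63 with Gsta2. All of these values come from the same 7 arrays.

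**Figure D4:**
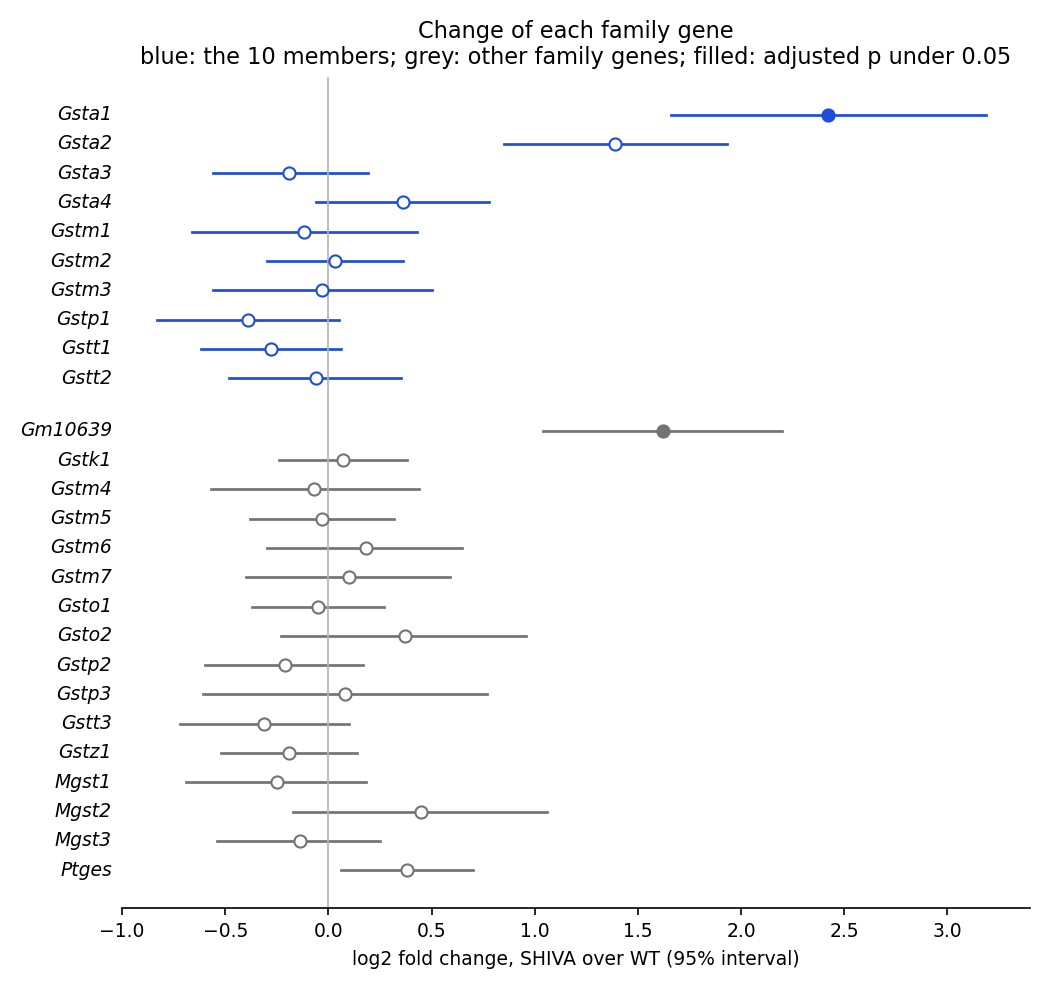
Log2 fold change (SHIVA over WT) with its 95% interval for the 10 genes (blue) and for 16 other genes of the wider family (grey), with filled points for an adjusted p under 0.05. Gsta1 (2.42), Gm10639 (1.62) and Gsta2 (1.39) lie to the right, and the rest lie between -0.39 and 0.45.

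The wider family held 22 listed genes, of which 16 could be tested. Gm10639 was the only one called, against 0.375% of all genes. The median log2 fold change was 0.02, and 8 genes lay above and 8 below 0. Ptges, the inducible prostaglandin E synthase, came next by p, with 11.71, 11.76 and 11.95 in WT and 12.14, 12.34, 12.13 and 12.13 in SHIVA livers and a log2 fold change of 0.38 ± 0.14 (SE; adjusted p = 0.29, limma). Gstt3, another theta gene, had a log2 fold change of -0.31 (adjusted p = 0.515). The liver-rich members Gstz1, Gstk1, Gsto1 and the membrane-bound Mgst1 had log2 fold changes of -0.19, 0.07, -0.05 and -0.25. Hpgds, Gstcd and Gstt4 were above background on no array.

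Genes that make, recycle and spend glutathione were read beside the transferases. Of 34 tested with limma 0 were called in either direction, against 0.375% of all genes. Of the 34, 7 had an unadjusted p under 0.05, against 13.3% of all genes, and the median log2 fold change of the list was -0.01. Gclc and Gclm, the subunits of the rate-limiting enzyme of glutathione synthesis, had log2 fold changes of 0.13 and -0.25. Glrx, the glutaredoxin that reduces glutathione-bound proteins, was lower in every SHIVA liver, at 9.63, 9.81, 9.4 and 10.23 against a WT mean of 11.01 ± 0.44 (SD, n = 3), and the groups did not overlap. Its log2 fold change was -1.24 ± 0.26 (SE; adjusted p = 0.112, limma), and it was called on the mean spot signal, in the authors' table, with array weights and without WT replicate 3 (adjusted p = 0.0298 to 0.0439).
Gpx8, a peroxidase of the endoplasmic reticulum, had a log2 fold change of 0.61 (adjusted p = 0.149), and Lap3, a peptidase that splits glutathione breakdown products, one of 0.52 (adjusted p = 0.239). In both the genotypes did not overlap, as in 12.2% of all genes.

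Targets of NRF2, the factor behind much of the induction of alpha GSTs, included no called gene among 27 tested with limma. Over all genes 0.375% were called. Of the 27, 4 had an unadjusted p under 0.05, against 13.3% of all genes. The median log2 fold change of the 27 was -0.13, with 8 genes above and 19 below 0. Nqo1, the most used marker gene of NRF2, had a log2 fold change of -0.02 (adjusted p = 0.978), and Hmox1, the heme-degrading enzyme, one of 0.45 (adjusted p = 0.454). Nfe2l2, which encodes NRF2, gave 9.03, 9.02 and 10.07 in WT and 10.19, 10.38, 10.23 and 9.8 in SHIVA livers. The groups overlapped through WT replicate 3, and the log2 fold change was 0.77 ± 0.28 (SE; adjusted p = 0.282, limma), or 1.12 with an adjusted p of 0.0379 without that liver. Aox1 and Cbr1, 2 further targets, had log2 fold changes of -0.69 and -0.49 (adjusted p = 0.199 and 0.295).

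The receptors for foreign compounds, AHR among them, and their target genes made the last list. Of 20 tested with limma 0 were called, against 0.375% of all genes. Of the 20, 7 had an unadjusted p under 0.05, against 13.3% of all genes, and the median log2 fold change of the list was -0.14. Nr1i3, which encodes the receptor CAR, gave 13.04, 13.11 and 13.06 in WT and 11.89, 12.15, 11.98 and 12.39 in SHIVA livers. Each SHIVA liver lay below each WT liver, as in 6.02% of all genes. The log2 fold change was -0.97 ± 0.16 (SE; adjusted p = 0.0547, limma), and Nr1i3 was called on the mean spot signal, on normexp values, in the authors' table, with array weights and where all arrays had to be above background (adjusted p = 0.0163 to 0.0361).
Among CAR targets Cyp2b10 had a log2 fold change of -0.26 (adjusted p = 0.482), Cyp2c37 one of -0.72 (adjusted p = 0.225) and Cyp2c55 one of 1.07 (adjusted p = 0.233). Aldh1a1, a retinal dehydrogenase, had one of -0.58 (adjusted p = 0.18). Cyp3a11, the main target of the receptor PXR, had one of 0.02 (adjusted p = 0.976). Ahr, which encodes AHR, had a log2 fold change of 0.54 (adjusted p = 0.306, limma). Its targets Cyp1a2 and Tiparp had changes of -0.73 and 0.02 (adjusted p = 0.522 and 0.977).

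**Figure D5:**
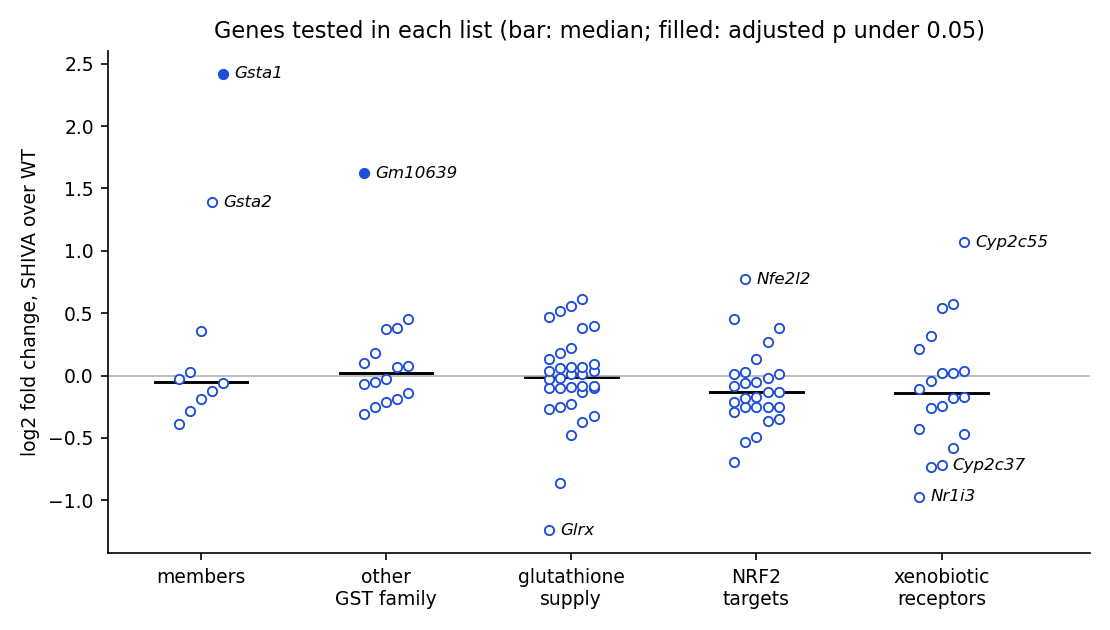
Log2 fold change (SHIVA over WT) of every tested gene in 5 lists, the 10 GST genes, the wider family, glutathione supply, NRF2 targets and xenobiotic receptors (bars, list medians; filled points, adjusted p under 0.05). The medians lie between -0.14 and 0.02, and the filled points are Gsta1 and Gm10639.

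The genes whose signals ran most like those of Gsta1 over the 7 arrays were named by Pearson's correlation, as a description. The closest (r = 0.995) was the unnamed interval on chromosome 9 that holds the probe identical to that of Gsta1. For this value the interval was read by its brightest probe, at 78116834 to 78116893, and not by the identical one. Next came Myo7b, a myosin of brush borders (0.993), and Sirt5, a mitochondrial desuccinylase (0.987). Gm10639 (0.982) and Ccn2, a secreted growth factor of matrix-forming tissue (0.977), followed. Part of this likeness is the genotype difference itself, which all 5 shared. The log2 fold change of Sirt5 was 0.27 (adjusted p = 0.402) and that of Ccn2 was 1.6 (adjusted p = 0.0378, limma). Myo7b was not well above background in any WT liver (2.61, 1.49 and 1.39) and was so in all 4 SHIVA livers (3.88, 3.36, 4.06 and 4.19), so no fold is given for it.

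Markers of other cells were read beside these values. Of 5 cholangiocyte markers tested 4 lay below 0, with a median log2 fold change of -0.55. Medians were -0.01 for stellate and fibroblast, 0.08 for endothelial, 0.12 for lymphocyte and 0.39 for erythroid markers. In each of these lists 0 were called by limma, against 0.375% of all genes. All 7 Kupffer cell markers were above background on at least 1 array and had log2 fold changes above 0, from 0.07 to 1.54. By limma 0 were called and 1 had an unadjusted p under 0.05, against 0.375% and 13.3% of all genes. The summed log2 signal of the Kupffer cell markers was 14.15 to 15.25 in WT and 14.64 to 15.79 in SHIVA livers. Of the 7 neutrophil markers 0 were called by limma, against 0.375% of all genes. An unadjusted p under 0.05 was reached by 2, Camp and Mpo, against 13.3% of all genes. Mpo passed the filter on dim probes only through SHIVA livers, so its p carries no weight. The 4 that were well above background in all livers, S100a8, S100a9, Camp and Elane, had log2 fold changes of -0.04 to 1.13. The other 3, Ngp, Ltf and Mpo, were not well above background in any WT liver or in SHIVA replicate 4 and were so in the other 3 SHIVA livers. Mpo gave 1.24, 1.24 and 1.18 in WT and 6.19, 6.98, 6.8 and 1.16 in SHIVA livers. The summed signal of the 7 was 9.95 to 10.82 in WT and 9.9 to 11.51 in SHIVA livers. The part of these cells in the values of Gsta1, Gsta2 and Gm10639 was not tested.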

How the data were processed

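Liver RNA of 3 WT and 4 SHIVA mice was hybridized to single-colour Agilent arrays, 1 mouse per array. Per array the authors deposited scanner output, with spot intensities from Agilent Feature Extraction 10.5.1.1 (per the submitters' processing notes) detrended in space, without subtraction of a local background and not normalized between arrays, and a table of quantile-normalized log2 values. Here the processed intensities were quantile normalized and put on the log2 scale, software-flagged spots (120 to 163 per array) were left out, and spots of a probe were averaged. The brightest probe stood for a gene. Genes well above background on at least 3 arrays were tested with limma 3.58.1 in R 4.3.3 (linear model, empirical Bayes, Benjamini-Hochberg over all genes), and single probes likewise. For the arrays the study's methods name gene set enrichment analysis and pathway scores built from expression and annotated pathways. Neither was run here. For the work in general they name an unpaired t-test or ANOVA, of which the t-test was run as an alternative. Gsta1 was compared with each relative by an exact permutation test over mice. The steps were tested on simulated data. Replicate numbers were not taken to pair the mice. Deviations of same-numbered mice correlated at -0.05, 0.01 and 0.24, but mice of different numbers were not compared, so this does not settle whether they are paired. The 10 genes and all lists were chosen with earlier results of these data known, so counts within them are descriptions. From each of the 4 lists beside the 10 genes, the text names called genes, genes without overlap at an absolute log2 fold change of at least 1, and, where these were under 3, also the 3 with the lowest p, and it adds the 5 genes most like Gsta1. Other genes were named for their role after their values were seen. Probe positions are mm9, and promoter sequences are RefSeq's for GRCm38.p6.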

Additional observations from a re-analysis of the deposited data

Results flagged for a closer look

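In 32 family genes and probes searched, 2 had 1 SHIVA liver far from the other 3, where chance alone gives about 1.6. Ptges was highest in SHIVA replicate 2, at a log2 signal of 12.34 against 12.13 to 12.14 in the others. Gstm7, a mu class gene, was lowest in the same liver, at 10.2 against 10.82 to 10.94.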

How the results depend on the processing

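The direction of Gsta1, Gsta2, Gsta3, Gsta4, Gstp1, Gstt1 and Gm10639 was the same under all alternatives run. Values near 0 changed sign, and the cause was not tested. The number of genes called over the whole array was 142 on the mean spot signal and in the authors' table, 283 with array weights, 13 with no filter on dim probes, 32 with the replicate block and 0 by the methods' t-test after adjustment (2299 at an unadjusted p under 0.05). With normexp the calls split into 27 higher and 44 lower, against 37 and 38 before. Of the 10 GST genes 2 were called on the mean spot signal, on normexp values, in the authors' table, with all arrays above background and with array weights, and 0 with no filter, with the replicate block and by the t-test. In the wider family 0 were called on 75th percentile scaling, on normexp values, with no filter, with the mean of all probes, with the block and by the t-test. In glutathione supply 1, Glrx, was called on the mean spot signal, in the authors' table and with array weights, and among xenobiotic receptors 1, Nr1i3, under these, on normexp values and with all arrays above background.

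Gsta2 passed the threshold at a log2 fold change of 1.44 (mean spot signal, authors' table), 1.41 (normexp), 1.39 (all arrays above background) and 1.28 or, over probes, 1.29 (array weights). Gsta1 missed it at 2.42 with no filter (adjusted p = 0.136) and by the t-test (adjusted p = 0.225). Gm10639 missed it at 1.62 with no filter and by the t-test and at 1.45 with the mean of all probes. The excess of Gsta1 over Gsta2 was 0.3 on the mean spot signal and in the authors' table and -0.04 with normexp. Gstt2 turned to 0.01 on the mean spot signal, normexp values and the authors' table and to 0.08 with array weights. Gstm2 and its brightest probe were 0 at the 75th percentile, 1 dimmer Gstm2 probe turned to -0.02 on the mean spot signal, normexp values and the authors' table, and with array weights the gene turned to -0.04 and its probes to -0.03, -0.01 and -0.01. With the mean of all probes Gstm1 was 0.02 and Gstm3, whose probes disagree, 0.48.

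Taking the replicate number as a block, Gsta1 had a log2 fold change of 2.34 (limma, adjusted p = 0.0883), Gm10639 of 1.46 (limma, adjusted p = 0.112), the excess over Gsta2 was 1.12 and no longer past the threshold, and Gstm2 and its probes gave -0.04 to -0.02. Whether the numbers pair the mice was not settled.

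Leaving out 1 liver at a time, the genes called ranged from 3 (without WT replicate 1) to 416 (without WT replicate 3), the GST genes called from 0 to 1, and those of each of the 4 other lists from 0 to 1. Log2 fold changes ranged from 2.2 to 2.86 for Gsta1, 1.44 to 1.86 for Gm10639, -0.25 to 0.08 for Gstm1, -0.04 to 0.09 for Gstm2, -0.17 to 0.15 for Gstm3 and -0.16 to 0.05 for Gstt2. They ranged from -0.02 to 0.12 and -0.04 to 0.16 for the other Gstm2 probes and from -0.01 to 0.27 for the second Gstm1 probe. The difference of Gsta1 ranged from 0.86 to 1.3 against Gsta2, 2.37 to 2.94 against Gsta3, 1.79 to 2.43 against Gsta4, 2.2 to 3.11 against Gstm1, 2.15 to 2.83 against Gstm2, 2.05 to 3.03 against Gstm3, 2.56 to 3.14 against Gstp1, 2.44 to 3.17 against Gstt1 and 2.28 to 2.83 against Gstt2. With 1 liver left out the exact test cannot go below 0.0667 (2 WT and 4 SHIVA) or 0.1 (3 and 3), so it says nothing about the stability of these calls. The low signal over background of the Gsta1 probe limits how well its fold change can be known.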
